A study of Drosophila melanogaster with 2 samples.

Results

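Of the 5038 summits in the list of peaks kept by the irreproducible discovery rate (IDR) step, 958 lay at head-to-head pairs of protein-coding genes. Each had, within 500 bp, the transcription start site (TSS) of a minus-strand gene at the lower coordinate and the TSS of a different, plus-strand gene at the higher one. The rule used annotation and summit position, and no signal value. The other summits were 1551 within 500 bp of a coding TSS but at no such pair, called unpaired coding promoter summits, and 2529 over 500 bp from any coding TSS. The chromatin came from whole Drosophila melanogaster embryos aged 10 to 24 h, of a transgenic line that carried the CG43347 protein (CG9817 in the labels) with green fluorescent protein (GFP) at its C-terminus. Precipitation with a GFP antibody was followed by sequencing (ChIP-seq) in 2 biological replicates, numbered 1 and 3, which form 1 group. Both carry the tag, all cell types of the embryo are mixed, and no group without the tag was analysed here. Nothing in the labels says which promoter drives the fusion gene.

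In flies, many genes needed in every cell lie close to a neighbour that is read in the opposite direction, so that a short stretch of DNA serves as promoter for both. Such housekeeping promoters usually hold short elements other than the TATA box, among them the DNA replication-related element (DRE), bound by the factor DREF and overlapping the core recognised by the insulator protein BEAF-32, Motif 1, bound by M1BP, the E-box known as Ohler motif 5, and Motif 7. Promoters of developmentally regulated genes more often hold a TATA box, an initiator (Inr) at the start site, or GAGA elements bound by the Trl protein.

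The summits are shown by 6 windows of the summit base and 100 bases on each side, 5′ to 3′ on the plus strand of the dm6 assembly, with the named motif, on either strand, in capitals. The first 5 are the strongest head-to-head summits of arms 2L, 3L, 3R and X that hold each of the 6 motifs most frequent at these summits (BEAF-32 core, TATA box, Inr, E-box, DRE and Motif 7), and the sixth shows the element of the insulator protein ZIPIC, added after its values were seen. In the Art3 and mRpS10 window (chr3R:15229427-15229627) the capitals mark the BEAF-32 core, in the Tcs5 and CHMP2B window (chr3L:5139402-5139602) an Inr and a TATA box, and in the CG3437 and CG3552 window (chr3L:9457707-9457907) an E-box. In the Atat and Shc window (chr3L:9426793-9426993) they mark a DRE, in the Brf and sds22 window (chr3R:17391417-17391617) Motif 7, and in the JMJD6 and Muted window (chr3R:22362656-22362856) the ZIPIC element.
Art3/mRpS10: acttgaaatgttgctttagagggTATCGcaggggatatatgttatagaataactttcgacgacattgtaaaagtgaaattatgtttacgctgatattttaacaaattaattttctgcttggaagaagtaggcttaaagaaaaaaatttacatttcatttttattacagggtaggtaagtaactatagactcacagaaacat
Tcs5/CHMP2B: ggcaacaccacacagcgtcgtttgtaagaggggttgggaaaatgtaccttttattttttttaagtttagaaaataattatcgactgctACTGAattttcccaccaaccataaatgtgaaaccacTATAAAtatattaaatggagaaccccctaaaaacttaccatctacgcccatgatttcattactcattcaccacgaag
CG3437/CG3552: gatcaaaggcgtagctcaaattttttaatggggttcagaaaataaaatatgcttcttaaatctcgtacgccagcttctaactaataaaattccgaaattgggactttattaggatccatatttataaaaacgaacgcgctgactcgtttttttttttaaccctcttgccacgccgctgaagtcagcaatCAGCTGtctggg
Atat/Shc: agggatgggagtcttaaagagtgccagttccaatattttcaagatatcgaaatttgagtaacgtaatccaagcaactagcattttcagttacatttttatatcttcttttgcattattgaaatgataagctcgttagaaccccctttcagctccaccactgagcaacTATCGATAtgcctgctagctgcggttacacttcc
Brf/sds22: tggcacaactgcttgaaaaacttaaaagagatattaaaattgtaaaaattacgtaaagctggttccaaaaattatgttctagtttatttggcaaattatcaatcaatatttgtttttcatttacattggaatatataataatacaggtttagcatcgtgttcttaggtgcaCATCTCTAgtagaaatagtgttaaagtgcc
JMJD6/Muted: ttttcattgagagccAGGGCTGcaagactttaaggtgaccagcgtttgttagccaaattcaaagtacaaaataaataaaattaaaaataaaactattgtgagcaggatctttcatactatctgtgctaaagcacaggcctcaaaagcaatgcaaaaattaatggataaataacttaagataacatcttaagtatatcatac
In the Art3, Atat, Brf, JMJD6 and CG3437 windows the capitals stand toward one end, away from the summit at the middle base. For these motifs other than the BEAF-32 core, distances inside the gap are given further on, for the 726 pairs with gaps over 200 bp. The JMJD6 and Muted summit lies outside its gap, 136 bp beyond the TSS of Muted.

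Signal is the value the authors deposited for each peak, on a scale the sources used here do not define, so it only ranks peaks within a list (rank 1 is the strongest). The strongest head-to-head summit (3R, 15229347 to 15229717) ranked 4 of 5038. Its signal was 2733 in replicate 1 (rank 3) and 2872 in replicate 3 (rank 6). It lay 119 bp from the TSS of Art3, an arginine methyltransferase gene, and 138 bp from that of mRpS10, a mitochondrial ribosomal protein gene. The summit between CG5611 and Mtl, a Rac-like GTPase gene (3R, 27635978 to 27636353), ranked 8 in the IDR-thresholded list, with a signal of 1984 in replicate 1 (rank 6) and 2584 in replicate 3 (rank 8). The summit between Tcs5, whose yeast namesake acts in tRNA modification, and CHMP2B, of the ESCRT-III membrane machinery (3L, 5139328 to 5139673), ranked 9, with a signal of 1873 in replicate 1 (rank 7) and 2473 in replicate 3 (rank 10). These 3 stood high in both replicates. All 3 windows held the BEAF-32 core, and the Tcs5 window also an Inr and the letters of the TATA box. None held a DRE, Motif 1 or Motif 7, which were in 11.4%, 3.97% and 9.60% of all head-to-head windows.

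The summit between Pdrg1 and Pal1, which encodes an enzyme of neuropeptide amidation (2R, 9959715 to 9960117), ranked 14, with 9 in replicate 1 and 16 in replicate 3. The pair CG13390 and CG17294 (2L, 8376710 to 8377061) followed at 19, with 23 in replicate 1 and 18 in replicate 3. At mRpS23, another mitochondrial ribosomal protein gene, and CenG1A, a GTPase regulator gene (2L, 13835295 to 13835627), the rank was 23, with 35 in replicate 1 and 19 in replicate 3. This gap of 492 bp was long, and the summit lay 104 bp from CenG1A and 388 bp from mRpS23. The summit between Atat, a tubulin acetyltransferase gene, and Shc, an adaptor of receptor tyrosine kinases (3L, 9426692 to 9427069), ranked 24, with 32 in replicate 1 and 25 in replicate 3. It was the only one of the 15 strongest with a DRE in its window, an element in 11.4% of all head-to-head windows.

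The next 8 of the 15 strongest ranked from 31 to 45. They were CG13018 and CG13016 (rank 31), mRpL23 and CG9004 (32), Chro, a chromodomain protein of interbands and domain borders, with Ssl1, a subunit of the general factor TFIIH (33), and Fbw5 and CG9147 (34). The others were Lon, a mitochondrial protease gene, with PIG-F, of glycolipid anchor synthesis (37), Mkk4, a MAP kinase kinase gene, with SLIRP2 (40), CG5757 and CG5098 (44), and CG7601 with CIA30, a respiratory complex I assembly factor (45). At Chro and Ssl1 the ranks of the replicates were 78 in replicate 1 and 21 in replicate 3, and the summit lay 85 bp inside Chro. Of all 958 summits, 11 were among the 50 strongest peaks of both replicates: those of Art3, CG5611, Tcs5, Pdrg1, CG13390, mRpS23, Atat, CG13018, mRpL23, Lon and CG7601 with their partners.

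At the weak end, the 5 lowest summits ranked from 4968 to 5036, with signals of 129.2 to 130.6. They lay between Naxe and RhoU, Rab40 and CG42258, Cen and CG2617, CG5555 and myd, and c(3)G, a gene of the synaptonemal complex, and Acyp2. All 5 had a counterpart in both replicates, at ranks of 3793 to 4867 in replicate 1 and 3910 to 8226 in replicate 3. The Rab40 window held a DRE and the c(3)G window held Motif 7, so these elements occurred at weak as well as at strong summits.

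The summits lay in short gaps, mostly between the 2 TSSs. The nearest pairs numbered 930, formed by 1859 genes, and 28 pairs had 2 summits. The gap between the TSSs of the nearest pair had a median of 293 bp (quartiles 217 and 399), from 1 bp at Atg6 and Pisd, an autophagy and a phospholipid synthesis gene (rank 3919), to 864 bp at mRNA-cap, the capping enzyme gene, and CG32599 (rank 4846). The summit was between the TSSs in 831 of 958 cases (86.7%) and beyond one of them, inside a gene, in 127, of which 111 had gaps of at most 200 bp. Upstream of the nearest coding TSS lay 829 of the 958 head-to-head summits and 1348 of the 1551 unpaired ones. Lying upstream was thus not particular to the pairs. Of the 831, 417 were nearer the minus-strand TSS, 412 nearer the plus-strand TSS and 2 equidistant. Cutting each gap into 3 equal parts put 424 of the 831 (51.0%) in the middle part.

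The distance to the nearer TSS was larger in longer gaps. Each range of gap given here leaves out its lower limit. In gaps of 200 to 300 bp the summit lay a median of 98 bp (quartiles 67.8 and 115) upstream of the nearer TSS, in gaps of 300 to 400 bp 117 bp (80.0 and 142), and in gaps of 400 to 600 bp 134 bp (83.3 and 182). In the same 3 ranges of gap the farther TSS was at 158, 236 and 354.5 bp, and the share of summits in the middle part was 64.7%, 50.7% and 32.4%. In gaps of 100 to 200 bp the nearer TSS was 28 bp away, and in gaps of at most 100 bp the median summit lay 32 bp beyond it, inside the transcribed region. In gaps of 600 to 1000 bp, with 27 summits, the nearer TSS was 247 bp and the farther one 439 bp away. In gaps over 500 bp the rule, with both TSSs within 500 bp, sets a lower limit to both distances. For summits between the TSSs, the length of a short gap also caps the distance to the nearer one. Part of the rise is thus by construction.

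**Figure D1:**
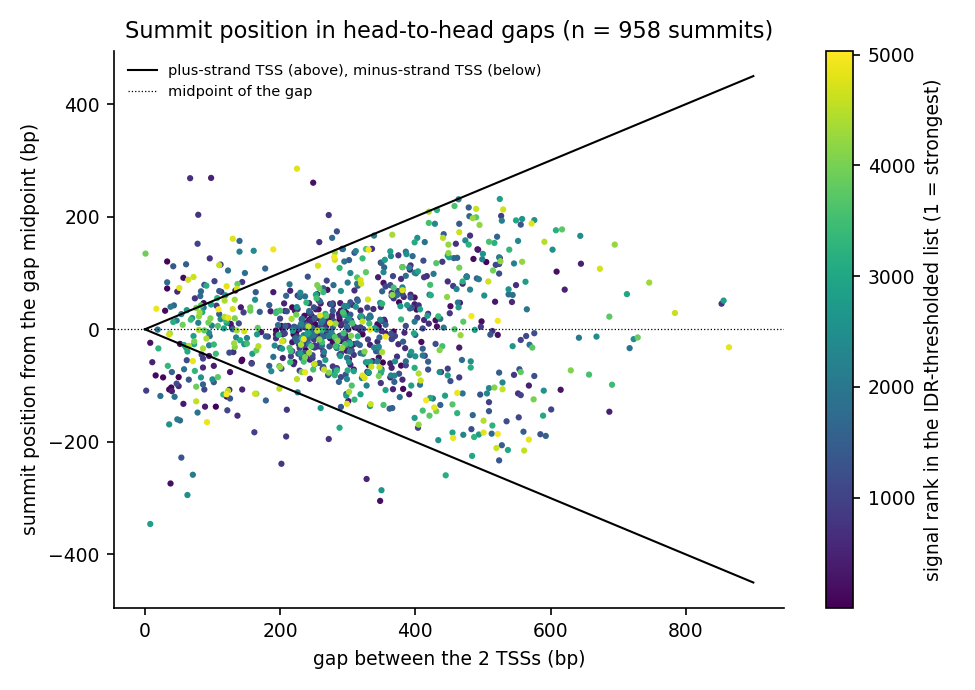
Position of each of the 958 summits from the midpoint of the gap (y axis, bp) against the gap between the TSSs of its nearest pair (x axis, bp), with colour for signal rank. Solid lines are the TSSs and 831 points lie between them; the points gather at the midpoint near 293 bp, the median gap, and spread more widely in longer gaps.

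Among all coding genes of the annotation, 3309 of 13945 (23.7%) had at least 1 TSS within 500 bp of a summit of the list, and 1920 of 13945 (13.8%) belonged to a head-to-head pair with one of the 958 summits. The genome held 2592 gaps of at most 1000 bp between neighbouring head-to-head coding TSSs, and 987 of 2592 (38.1%, 95% Wilson interval 36.2 to 40.0) had a summit within 500 bp of both TSSs. Of the 8952 coding genes in no such gap, 1157 (12.9%, 12.2 to 13.6) had a summit. The difference was 25.2 percentage points (95% Newcombe interval 23.2 to 27.2). Counted by gene, 2152 of 4993 genes at these gaps (43.1%) had a summit, 30.2 points (28.6 to 31.7) above the others. A paired gene also takes in its neighbour's summits, and with each peak counted for 1 gene, that of the closest coding TSS, the difference between paired and other genes was 11.9 points (10.5 to 13.3). Intervals here and below cover counting error over peaks, gaps or genes, which are not replicates, and no p-values are given.

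The share with a summit varied with the gap. It was 34.3% (147 of 428) for gaps of up to 100 bp, 35.3% (125 of 354) for 100 to 200 bp, 55.9% (302 of 540) for 200 to 300 bp, 52.7% (202 of 383) for 300 to 400 bp and 40.3% (188 of 467) for 400 to 600 bp. It was 5.48% (23 of 420) for 600 to 1000 bp, where the space within 500 bp of both TSSs shrinks by construction. Counting a summit near any TSS of either gene instead gave 38.6%, 39.3%, 59.3%, 56.4%, 49.3% and 37.9% in the same order. Gaps of 200 to 400 bp were thus the ones most often occupied under both counts.

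**Figure D2:**
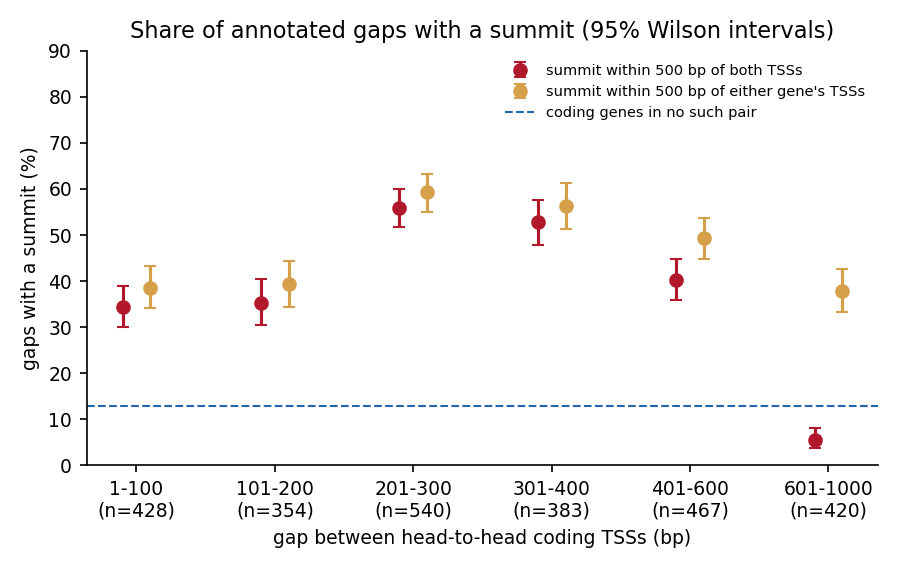
Share of annotated head-to-head gaps with a summit (y axis, %) by the distance between the TSSs (x axis, bp), within 500 bp of both TSSs (red) or of any TSS of either gene (yellow), with 95% Wilson intervals; the dashed line is the 12.9% of coding genes in no such gap. Both series peak in gaps above 200 and up to 300 bp, at 55.9% and 59.3%.

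Many gaps without an IDR-thresholded summit were present in the longer lists. The full list of replicate 1, of 30000 peaks, covered 1613 of 2592 gaps (62.2%) and that of replicate 3 covered 1343 (51.8%), with 1251 (48.3%) in both and 887 (34.2%) in neither. Of the 1605 gaps without an IDR-thresholded summit, 285 (17.8%) had one in both full lists. By chromosome arm, the share of gaps with an IDR-thresholded summit was 43.4% on 3R, 39.4% on 3L, 38.3% on 2L, 34.1% on X and 33.8% on 2R. On chromosome 4, 0 of 11 had one (upper Wilson limit 25.9%). The X chromosome differed from all autosomes together by -4.71 points (-9.65 to 0.501), an interval that holds 0.

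Head-to-head summits ranked higher than other promoter summits. They had a median rank of 1709 (quartiles 770 and 3077), against 2400 (1142 and 3636) at unpaired coding promoters and 2866 (1608 and 4001) away from coding TSSs. Among the stronger 2519 of the 5038 were 631 of 958 head-to-head summits (65.9%, 62.8 to 68.8), 810 of 1551 unpaired coding promoter summits (52.2%, 49.7 to 54.7) and 1078 of 2529 others (42.6%, 40.7 to 44.6). The difference from unpaired promoters was 13.6 points (9.70 to 17.5). Among the 503 strongest were 16.2% of head-to-head, 11.5% of unpaired and 6.68% of other summits, and 29 of the 100 strongest peaks were at head-to-head pairs. In gaps of 200 to 300 bp 76.4% (71.2 to 80.9) were among the stronger 2519, in gaps of 300 to 400 bp 70.7% (64.3 to 76.4), and in gaps of 400 to 600 bp 56.7% (49.9 to 63.2). In gaps of up to 100 bp the share was 61.0%, and in those of 100 to 200 bp 55.0%.

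Each replicate alone gave the same order. Among the 5038 strongest peaks of replicate 1, 65.5% of head-to-head summits (719 of 1098) were in its stronger 2519, against 48.7% at unpaired promoters (843 of 1730). In replicate 3 the shares were 64.6% (564 of 873) for head-to-head summits and 53.9% (785 of 1456) for unpaired ones. Head-to-head summits made up 21.8% of the strongest peaks of replicate 1 and 17.3% of those of replicate 3.

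The replicates differed in how many head-to-head peaks reached the top of their lists. Of the 958, 858 (89.6%) matched one of the 5038 strongest peaks of replicate 1 by at least 50% reciprocal overlap, and 699 (73.0%) one of those of replicate 3. At unpaired promoters the shares were 79.2% for replicate 1 and 77.2% for replicate 3, so head-to-head summits were 10.4 points (7.53 to 13.1) above unpaired ones in replicate 1 and -4.21 points (-7.75 to -0.744) from them in replicate 3. By these strongest peaks, head-to-head summits matched in replicate 1 alone numbered 219 (22.9%), and in replicate 3 alone 60 (6.26%). At unpaired promoters 17.2% were matched in replicate 1 alone and 15.2% in replicate 3 alone. At other summits the same shares were 13.2% and 29.9%. With the full lists, 755 of 958 (78.8%) head-to-head and 1254 of 1551 (80.9%) unpaired summits had a counterpart in both, a difference of -2.04 points (-5.33 to 1.16). The sign turned with looser matching: the difference was 1.28 points (0.200 to 2.27) for an overlap of at least 1 bp and 0.949 points (-0.742 to 2.51) for summits within 100 bp. Across the 755 summits with both counterparts the ranks of the replicates had a Spearman rho of 0.916, and across the 1254 unpaired ones 0.757. These describe peaks of the same 2 libraries that were chosen as strong in the pooled data. The peaks had also passed the IDR step, which selects for agreement between replicates, and rho leaves out summits without both counterparts. Part of the agreement in both classes thus follows from the selection.

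**Figure D3:**
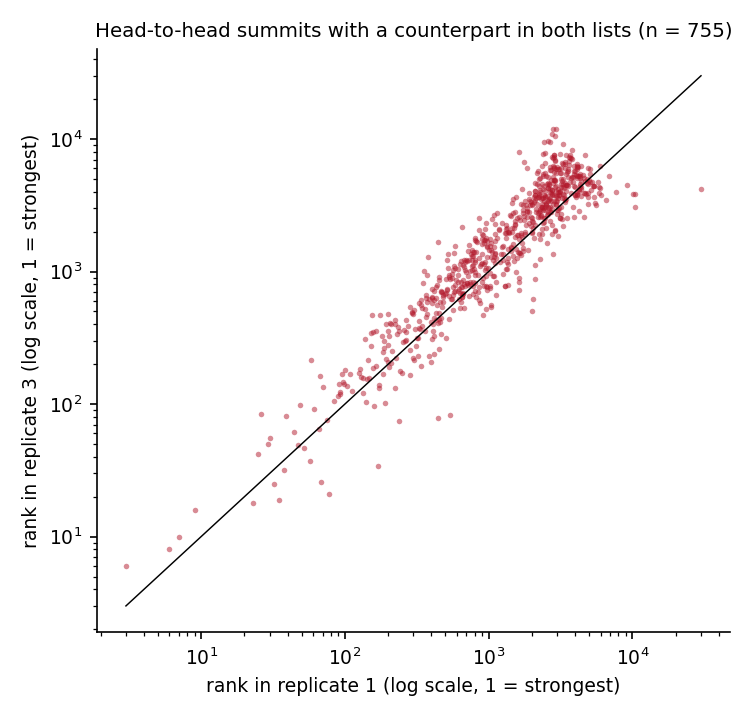
Rank in replicate 3 (y axis) against rank in replicate 1 (x axis), both on log scales, for the 755 head-to-head summits with a counterpart in both full lists; the line marks equal ranks. Points follow the line at the strong end and spread more at the weak end, with Art3 and mRpS10 lowest at ranks 3 and 6.

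The DNA at head-to-head summits was rich in A and T. Windows of the summit and 100 bases on each side had a median GC content of 32.8% (quartiles 28.9 and 37.8), against 34.8% (30.3 and 40.3) at unpaired promoters and 34.3% (30.3 and 38.8) at other summits. Stronger head-to-head summits had less GC: the median was 31.3% among those in the 503 strongest peaks, 31.8% in the rest of the stronger 2519 and 35.8% in the weaker remainder. At unpaired promoters the same 3 medians were 33.3%, 34.3% and 35.3%. The fall was local and was seen in each class. In 21-base windows the mean GC at head-to-head summits was 31.5% at 20 bp before the summit and 46.3% at 320 bp before it, and 46.0% at 280 bp after it. At unpaired summits it was 34.2% at 20 bp and 43.3% at 320 bp before the summit. At other summits it was 32.8% and 42.9% at the same places. Windows at the midpoints of the 987 gaps with a summit had a median GC of 31.3%, against 33.8% for the 1605 gaps without one. Base composition moved with class and with rank, and its part in the motif shares below was not tested.

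Motif counts were compared in the same windows, on both strands. Head-to-head summits lay a median of 98 bp from the nearest coding TSS, with a median of 2 coding TSSs within 500 bp. Unpaired summits lay at a median of 161 bp, with a median of 1 such TSS. Windows at all coding promoters were centred 162 bp upstream of the TSS. The part of these placements in the motif shares was not tested. Of 15 motifs, 8 (53.3%) differed between head-to-head and unpaired promoter summits by an interval without 0, 5 higher and 3 lower. DRE (TATCGATA) was in 109 of 958 head-to-head windows (11.4%, 9.52 to 13.5), against 96 of 1551 unpaired ones (6.19%, 5.10 to 7.50), 11 of 2529 others (0.435%) and 3.07% of all coding promoters. Its difference from unpaired promoters was 5.19 points (2.91 to 7.62), and 2.85 points (0.683 to 5.14) with replicate 3 left out. The BEAF-32 core (CGATA), which every DRE contains, was in 49.0% of head-to-head windows, 37.0% of unpaired ones and 29.9% of all coding promoters (difference 11.9 points, 7.96 to 15.9). Motif 7 (CATCNCTA) was in 9.60% of head-to-head windows, against 6.38% of unpaired ones and 2.36% of all coding promoters (3.22 points, 1.06 to 5.54). The ZIPIC element (AGGGCTG) was in 6.26% of head-to-head windows, against 3.87% of unpaired ones and 1.68% of all coding promoters (2.39 points, 0.653 to 4.31). The letters of the TATA box (TATAAA) were in 43.6% of head-to-head windows, against 36.0% of unpaired ones and 31.8% of all coding promoters (7.59 points, 3.65 to 11.5).

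Lower shares were found for GAGA and Inr, though not for the TATA box, and for a repeat. The GAGA element, searched as GAGAGAG, was in 6 of 958 head-to-head windows (0.626%), against 51 of 1551 unpaired ones (3.29%) and 6.15% of all coding promoters, a difference of -2.66 points (-3.73 to -1.59). Inr (TCAGT) was in 27.6% of head-to-head windows, against 32.4% of unpaired ones (-4.81 points, -8.43 to -1.11). Without replicate 3 the interval of this difference held 0 (-3.41 points, -6.86 to 0.114). The letters of Inr were in 38.2% of the windows of other summits and 29.6% of those at all coding promoters. Their distance from a TSS was not measured. The CA repeat (CACACAC) was in 2.40%, against 4.51% of unpaired windows (-2.11 points, -3.51 to -0.616). Motif 1 (GGTCACAC) was in 3.97% of head-to-head and 3.68% of unpaired windows (0.292 points, -1.21 to 1.94), and the E-box (CAGCTG) in 11.6% and 9.74% (1.85 points, -0.599 to 4.43). The E2F site (TTCGCGC), the GATA site (AGATAAG) and the CTCF core (AGGNGGC) had intervals that hold 0 as well. The Zelda site (CAGGTAG) was in 7 head-to-head and 8 unpaired windows. The sequence GCATGCGC (NRF1-like in the plot of motif shares), bound by ewg in flies, was in 2 head-to-head and 6 unpaired windows. Counting DRE, Motif 1, E-box, Motif 7 and ZIPIC together, 63.0% of head-to-head windows held none of the 5 kinds, against 74.9% of unpaired ones.

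**Figure D4:**
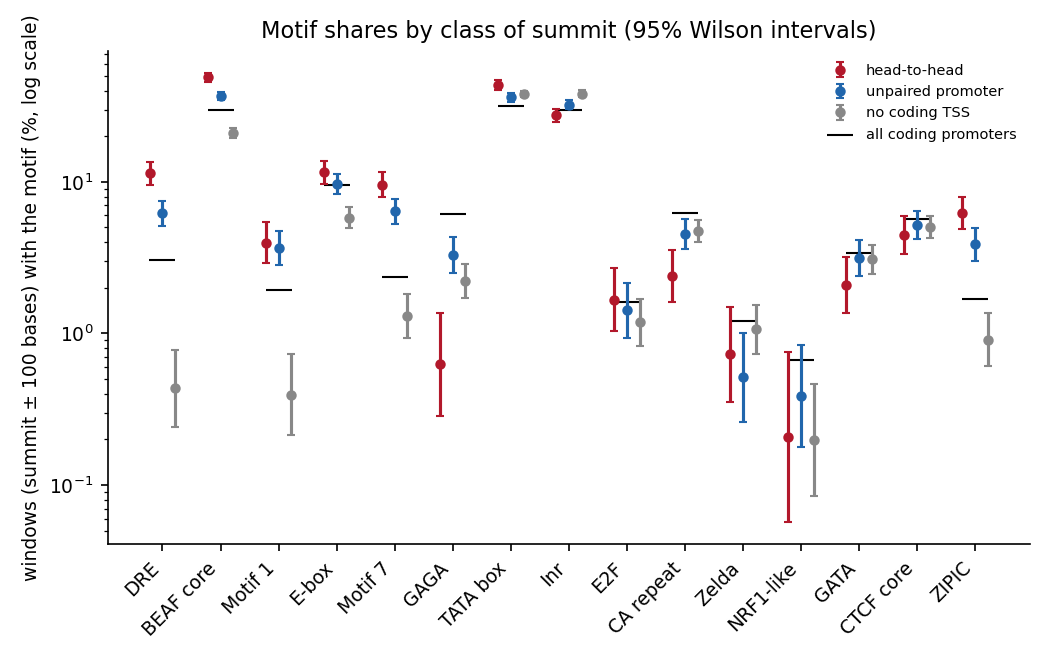
Share of summit windows (100 bases on each side) with each of 15 motifs (y axis, %, log scale), with 95% Wilson intervals. Colours mark head-to-head (red), unpaired coding promoter (blue) and other summits (grey). Black bars are windows at all coding promoters, centred 162 bp upstream of the TSS. DRE stood at 11.4% at head-to-head, 6.19% at unpaired and 0.435% at other summits, and GAGA at 0.626% at head-to-head against 3.29% at unpaired ones.

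Within the head-to-head pairs, summits with a DRE, BEAF-32 core, Motif 1, E-box or Inr were less often among the stronger 2519, those with the letters of the TATA box more often, and for the other 9 motifs the interval holds 0. Of the 109 summits with a DRE, 55.0% were among the stronger 2519, against 67.3% of the 849 without (-12.2 points, -22.1 to -2.64). With the BEAF-32 core the share was 58.6%, against 72.8% without (-14.2 points, -20.0 to -8.17). With Motif 1 it was 44.7% (17 of 38), against 66.7% without (-22.0 points, -36.9 to -6.14), and with the E-box 54.1%, against 67.4% without (-13.4 points, -23.1 to -3.82). With Inr it was 59.5%, against 68.3% without (-8.83 points, -15.7 to -2.07). The letters of the TATA box went the other way, with 73.2% against 60.2% without (13.0 points, 7.01 to 18.8). Motif 7 (69.6% with, 65.5% without) and ZIPIC (58.3% with, 66.4% without) were among the 9. DRE and the BEAF-32 core were thus more frequent at head-to-head than at unpaired summits, and within the head-to-head pairs summits with them were less often among the stronger 2519. Rank also varied with gap length and GC content. The part of these, and of the distance from summit to TSS, in the differences by motif was not tested.

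The motifs and the summit stood at different places in the gap. In the 726 pairs with a gap over 200 bp, the 199 DREs inside the gap had a median distance of 32.5 bp (quartiles 16.5 and 55.0) from the nearer TSS, and 93.5% were within 100 bp of one. Their median distance from the summit was 118.5 bp. The 137 matches of Motif 7 lay 24.5 bp from the nearer TSS and 99.5 bp from the summit. The 77 ZIPIC elements lay 38 bp from the nearer TSS and 99 bp from the summit, the 96 matches of Motif 1 29.5 and 149 bp, and the 189 E-boxes 30.5 and 129.5 bp. The letters of the TATA box were placed otherwise. Their 888 matches lay 119.5 bp from the nearer TSS and 83 bp from the summit, so most were not at the distance of a working TATA box, which stands close to the start site, and 51.6% were on the strand of the nearer gene.

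Motif 7 and ZIPIC had an orientation. Of the 137 matches of Motif 7 in these gaps, 122 (89.1%, 82.7 to 93.3) read on the strand of the nearer gene. For ZIPIC, 17 of 77 (22.1%, 14.3 to 32.5) did, so most AGGGCTG elements read on the opposite strand. For Motif 1 the count was 59 of 96 (61.5%, 51.5 to 70.6). DRE and the E-box are palindromes and have no orientation.

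Around the summit these positions gave a dip. Within 200 bases on each side, 11.1% of Motif 7 matches (25 of 226) lay within 50 bp of a head-to-head summit, against 32.8% (58 of 177) at unpaired promoters. For DRE the shares were 19.6% (44 of 225) at head-to-head and 32.1% (51 of 159) at unpaired summits, for Motif 1 8.33% and 26.9%, and for ZIPIC 24.6% and 35.4%. Motif 7 was in 2.82% of head-to-head summits in the bin from 100 to 80 bp before the summit, in 0 of 958 in the 20 bp just before it, with an upper Wilson limit of 0.399%, and in 2.09% from 100 to 120 bp after it. With windows of 50 bases on each side, which reach little of this flanking sequence, 2 of the 15 motifs (GAGA and the letters of the TATA box) still differed between head-to-head and unpaired summits, and Motif 7 stood at -0.976 points (-2.29 to 0.464).

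**Figure D5:**
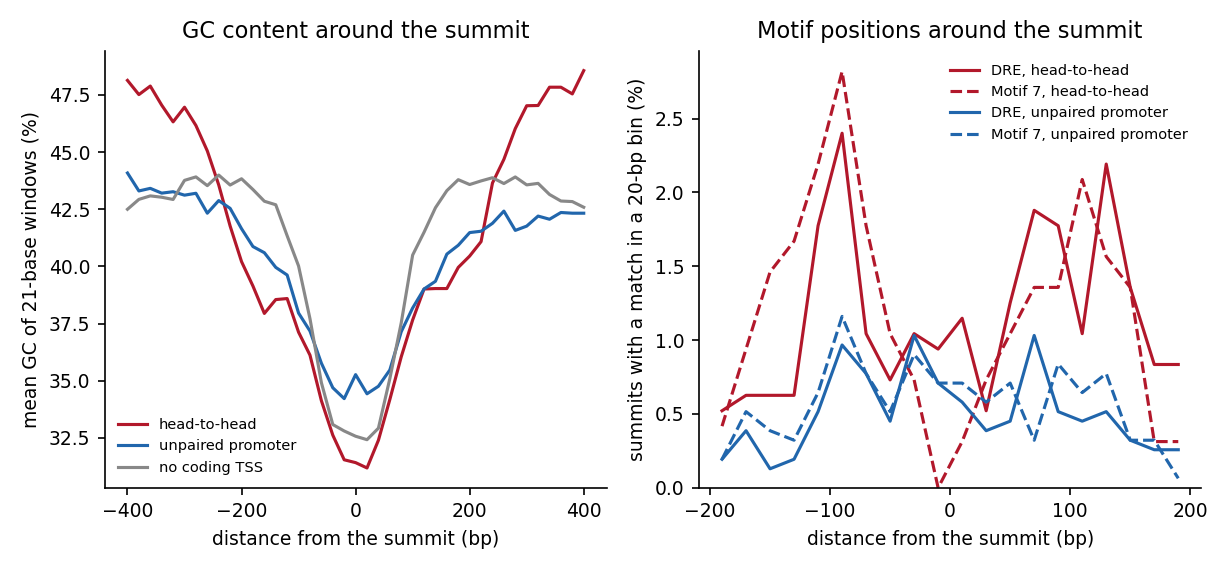
Left, mean GC of 21-base windows (y axis, %) by distance from the summit (x axis, bp) at head-to-head, unpaired coding promoter and other summits. Right, share of summits with a DRE (solid) or Motif 7 (dashed) in each bin of 20 bp (y axis, %) at head-to-head (red) and unpaired promoter summits (blue). GC in each class is lowest within 20 bp of the summit. At head-to-head summits both motifs have a flank on each side, up to 2.40% for DRE and 2.82% for Motif 7.

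Comparing gaps with and without a summit, at their midpoints, separated the motifs further. Motif 7 was in 7.19% of the 987 gaps with a summit, against 4.49% of the 1605 without (2.71 points, 0.871 to 4.71), and ZIPIC in 5.57% against 2.55% (3.02 points, 1.47 to 4.76). GAGA was in 1.11% with and 3.18% without a summit (-2.06 points, -3.16 to -0.913), and Inr in 27.2% with and 33.5% without (-6.30 points, -9.87 to -2.66). The letters of the TATA box were in 44.0% with and 38.1% without (5.90 points, 2.01 to 9.80), and the Zelda site in 3 of 987 with and 18 of 1605 without (-0.818 points, -1.49 to -0.102). DRE was in 8.81% with and 8.72% without a summit over all gaps (0.0918 points, -2.10 to 2.41). In gaps of 200 to 400 bp alone DRE was in 9.33% of those with a summit, against 5.01% of those without (4.31 points, 0.936 to 7.64). There Motif 7 (4.24 points, 1.70 to 6.86), the TATA letters (8.23 points, 1.77 to 14.6) and Inr (-6.74 points, -12.5 to -0.990) kept intervals without 0. Those of ZIPIC (1.78 points, -0.636 to 4.16), GAGA (-0.877 points, -2.68 to 0.623) and the Zelda site (-0.796 points, -2.39 to 0.446) held 0, and the CTCF core was lower (-2.67 points, -5.12 to -0.576). The 2 sets of gaps differed in length, with medians of 277 bp with and 331 bp without a summit, and the part of length in these shares was not tested beyond that range.

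All 8192 words of 7 bases (each counted with its reverse complement) gave 643 (7.85%) that differed between head-to-head and unpaired promoter windows by an interval without 0. The 294 higher words (3.59%) included 47 of the 64 made of A and T alone, such as AAATAAT (29.4% of head-to-head, 20.9% of unpaired windows). The others with the largest differences held the letters of the BEAF-32 core: ATCGATA was in 21.5% of head-to-head, 13.0% of unpaired and 1.90% of other windows, and CTATCGA in 17.5%, 9.67% and 1.30%. AGTGTTG, which is none of the 15 motifs, was in 12.4% of head-to-head, 8.58% of unpaired and 2.85% of other windows. It was named after its values were seen. The 349 lower words (4.26%) included GAGAAAA, in 4.18% of head-to-head and 7.74% of unpaired windows. No word of A and T alone was lower.

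Of 944 genes on 20 lists of pathways, complexes and families, 195 were in a head-to-head pair with a summit, and genes of several large complexes of basic cell machinery were among them. Membership is described by counts, beside the 13.8% of all coding genes in a pair with a summit and the 35.8% (4993 of 13945) at any head-to-head gap. Of 73 mitochondrial ribosomal protein genes, 34 (46.6%, 35.6 to 57.9) were in such a pair, and 58 of the 73 were at a head-to-head gap. Behind mRpS10, mRpS23 and mRpL23 came mRpL24, opposite betaggt-I, at rank 94. Of 86 cytoplasmic ribosomal protein genes, 32 (37.2%, 27.7 to 47.8) were in one, with a median rank of 995, led by RpS27 opposite Nup37 (rank 73), RpL34b opposite CG8132 (104), RpL7 opposite Ripalpha (144) and RpL14 opposite Nelf-E (295). Of the 86 cytoplasmic ones, 53 were at a head-to-head gap. Another 36 cytoplasmic ribosomal protein genes had a promoter summit but were in no pair with a head-to-head summit, whereas 5 mitochondrial ones were so placed.

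Genes of gene expression made up the next lists, and part of their counts goes with lying head to head at all. Of all coding genes at a head-to-head gap, 38.5% were in a pair with a summit. Among listed genes at a gap it was 18 of 36 for Mediator, TAF and RNA polymerase II genes, and the share was 45.5% for aminoacyl-tRNA synthetases, 41.4% for spliceosomal proteins, 38.1% for initiation factors and 36.8% for nuclear pore genes. Of 50 Mediator, TAF and RNA polymerase II genes, 18 (36.0%) were in a pair with a summit, led by MED27 (rank 210), Polr2B (250), MED30 (290) and Polr2H (294). Of 32 genes of spliceosomal proteins, of which 29 lay at a gap, 12 (37.5%) were (19 with replicate 3 left out), led by snRNP-U1-C (569), Sf3b6 (653), SF2 (879) and LSm1 (1043). Of 32 aminoacyl-tRNA synthetase genes, which encode the enzymes that charge tRNAs, 10 (31.2%) were, led by SerRS (258), ThrRS (349), IleRS (453) and AspRS (1301). Of 44 translation initiation factor genes, 8 (18.2%, 9.51 to 32.0) were, an interval that holds the 13.8% of all coding genes, led by eIF4EHP, the cap-binding competitor of eIF4E (46), eIF1 (583), eIF3m (2197) and eIF3a (2442). Of 10 genes of the RNA exosome, of which 9 lay at a gap, 5 were: Rrp6 (790), Ski6 (1132), Csl4 (1212), Dis3 (2798) and Rrp42 (2801). Of 22 nuclear pore genes, 7 (31.8%) were, led by Nup37 (73), Nup98-96 (494), Nup93-2 (529) and Nup160 (1212).

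Organelle and traffic genes followed, and of those at a head-to-head gap 10 of 20 ESCRT and Vps genes, 42.3% of proteasome, 39.1% of respiratory chain, 35.3% of Rab and 42.9% of vacuolar ATPase genes were in a pair with a summit. Of 31 ESCRT and Vps genes, which act in membrane sorting, 10 (32.3%) were in a pair with a summit, led by CHMP2B (rank 9), Vps33B (215), Vps36 (347) and Vps50 (1021). Of 48 proteasome genes 11 (22.9%) were, with a median rank of 2801, led by Rpn6 (899), Rpn13 (1216), Rpn5 (1217) and Rpn3 (1626). Of 89 respiratory chain and ATP synthase genes 18 (20.2%) were, led by ND-MWFE (204), ND-ASHI (231), ND-51 (638) and ATPsynE (742). Of 33 Rab GTPase genes 6 (18.2%) were, led by Rab39 (717), RabX1 (2129), Rab8 (3002) and Rab18 (3018). Of 33 vacuolar ATPase genes 6 (18.2%) were (10 with replicate 3 left out), led by Vha100-2 (675), Vha68-1 (697), Vha16-5 (1388) and Vha55 (1436). The counts were 4 of 19 for mitochondrial import, 3 of 8 for the CCT chaperonin (5 with replicate 3 left out) and 4 of 19 for replication licensing. At a head-to-head gap lay 7 mitochondrial import, 7 CCT and 14 replication licensing genes.

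Insulator and promoter-binding protein genes had 6 of 15 (40.0%, 19.8 to 64.3) in a pair with a summit, and 8 of the 15 lay at a head-to-head gap. They were Chro (rank 33), Cp190 opposite CG4338 (61), pzg opposite CG12974 (650), M1BP opposite CG8202 (693), Dref opposite RpL13 (998) and su(Hw) opposite Polr2I (2608). The genes of DREF and M1BP, which bind the DRE and Motif 1, were thus themselves at occupied pairs, as were 38.5% of all coding genes at a gap. Tissue-specific families were at the low end: 1 of 179 chemoreceptor genes (Ir60e, rank 3383), 0 of 113 cuticle protein genes (upper limit 3.29%) and 0 of 8 Hox genes (upper limit 32.4%). Few of these lie head to head, with 26 chemoreceptor, 10 cuticle and 0 Hox genes at any such gap.

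Of the 191 nearest pairs with a listed gene, 10 had both genes on one of the 20 lists, and in 0 of these were they on the same list. The same count is not given for gaps without a summit. The pair of RpS27 and Nup37 (3R, 25247366 to 25247752) had rank 73, with 61 in replicate 1 and 92 in replicate 3. RpL28 and eIF1 (3L, 3222891 to 3223137) had 583, with 526 in replicate 1 and 654 in replicate 3. Dref and RpL13 (2L, 9967167 to 9967312) had 998, with 776 in replicate 1 and no counterpart in replicate 3 by reciprocal overlap. The remaining 7 were Csl4 and Nup160 (1212), ATPsynCF6 and Sec13 (1939), su(Hw) and Polr2I (2608), mRpL39 and Prosbeta2 (2685), Vps39 and eIF1A (2718), Prosbeta1 and Rrp42 (2801), and Rab18 and RpL35 (3018). Their partners come from different complexes, such as a ribosomal subunit with a nuclear pore subunit.

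Some members rest on the annotation or on the 500 bp of the rule. Of the 958, 907 had a single qualifying pair and 51 had several. The summit with the most, 21 pairs (3R, 21365227 to 21365626, rank 112), lay among the separately annotated pre-mod(mdg4) exons, whose RNAs are joined by trans-splicing, so it is no ordinary promoter pair. Just inside the limit, the farther TSS was at 495 bp for Gnpat and CG5112 (rank 1358), 496 bp for Rfk and kipf (4585) and 498 bp for mRpS25 and nmdyn-D6 (4216). Just outside it were CG14968 and ZnT63C (501 bp, rank 709), Elp6 and Dic1 (501 bp, 2051), a pair that holds another, qualifying summit at rank 260, and Nurf-38 and CG11414 (502 bp, 4832).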

How the data were processed

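The authors deposited peak lists on dm6 for each replicate (30000 peaks each), for both pooled (30000) and after the IDR step (5038). Per the labels' protocols, chromatin was sonicated to 200 to 800 bp. The signal of each peak, and the −log10 q value beside it, are as deposited by the authors and were used as ranks or not at all. Which program called the peaks, and with which IDR version, is not given in the sources used here, and a control was not analysed here. The lists give no read totals, so depth is unknown.

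TSSs of 13945 coding genes came from Ensembl release 115 (BDGP 6.54) and sequence from the release 6 assembly in RefSeq. Windows at all coding promoters were centred 162 bp upstream of each TSS, the median of unpaired summits upstream of theirs. Shares have 95% Wilson intervals and differences of shares 95% Newcombe intervals. They cover counting error, the samples form 1 group, and no p-value was computed. For each replicate alone, its 5038 strongest peaks were used instead. The summit rule, gap list, motif search and intervals were tested on simulated data. Python 3.11.15, numpy 2.4.6, pandas 2.3.3, pysam 0.24.0 and matplotlib 3.10.9 were used. Coordinates are 1-based.

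The members, gene lists, motifs and the naming rule were chosen with earlier results of these data known. The rule named the 15 strongest and 5 weakest summits with both genes, pairs with both genes on lists, up to 4 genes by signal of each list with 5 or more genes in pairs, members among the 50 strongest peaks of both replicates, and the shortest and longest gap. The 7-mers, the comparison of gaps with and without a summit, the motif positions and GC by rank were examined after the data were seen. Gene lists were drawn by symbol, and a gene with another name is missed.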

Additional observations from a re-analysis of the deposited data

How the results depend on the processing

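The number of head-to-head summits was 634 with TSSs within 250 bp and 631 in the stronger 2519 peaks, against 958. It was 1191 at 1000 bp and 831 for summits between their TSSs, and ran from 873 to 1098 with either replicate left out. The difference between gaps and other coding genes kept its sign and an interval without 0 under 5 alternatives (11.9 to 28.5 points), as did that in the stronger 2519 under 7 (4.64 to 16.8 points, the lowest for the 503 strongest peaks). The difference in presence in both replicates turned positive with an overlap of at least 1 bp (1.28 points), with summits within 100 bp (0.949 points) and among the strongest 5038 peaks of each replicate (4.74 points), and was -1.44 points in the stronger 2519. Windows of 50 bases on each side of the summit left 2 motifs past the interval, against 8, and moved the difference of median GC to -3.96 points, against -1.99. With 200 bases on each side 10 passed, with Inr lost and Motif 1, E-box and GATA gained. With either replicate left out 8 to 9 passed: the E-box was gained without replicate 1, and without replicate 3 Inr was lost (-3.41 points) and GATA gained. In the stronger 2519 peaks 6 passed, without ZIPIC (1.35 points, -0.874 to 3.73) and the CA repeat, and with upstream unpaired summits alone 7 passed, without the CA repeat. The number of listed genes in pairs, 195, ran from 134 at 250 bp to 237 at 1000 bp. At 250 bp cytoplasmic ribosomal protein genes numbered 17, against 32, aminoacyl-tRNA synthetases 5, against 10, and CCT genes 0, against 3. Single motifs with main intervals that hold 0, and Motif 7 in the shorter window, changed sign. In the shorter window these were Motif 7 (-0.976), Motif 1 (-0.359), E-box (-0.666), E2F (-0.0829) and GCATGCGC (0.0153). In the longer window it was GCATGCGC (0.0368). Without replicate 1 it was E2F (-0.0906). Without replicate 3 they were E2F (-0.210) and Motif 1 (-1.001, and 1.01 without replicate 1). Causes were not tested, beyond the shorter window reaching less flanking sequence. Leaving out the pre-mod(mdg4) summit, chosen after the data were seen, moved nothing past these limits. No paired analysis was possible because there is 1 group. With depth unknown, gaps without a summit are not shown to lack the protein.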
